A study of Macaca mulatta with 161 samples.

Results

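The nuclear genes of oxidative phosphorylation were followed in 161 single inner cells of rhesus monkey blastocysts. Members were taken by symbol, as every row of the expression table that starts with NDUFA, NDUFB, NDUFC, NDUFS, NDUFV, UQCR, ATP5 or COX4 to COX8, or that is SDHA, SDHB, SDHC, SDHD or CYC1. This gave 90 of 16049 genes. Oocytes of hormone-stimulated females were fertilised in vitro, and the embryos grew in HECM-9 medium with 10% fetal bovine serum. All embryos shared that culture, and there is no treated or genetically altered group. The stages were the early blastocyst (about embryonic day 5, 44 cells), the middle blastocyst (about day 5.5, 39 cells), the late blastocyst (about day 6, 52 cells) and the hatching blastocyst (about day 7, 26 cells). Outer cells had been stained with the dye PKH26, and cells without its fluorescence were taken as inner cells. The labels do not tie cells to embryos. Each stage therefore counts as 1 sample, cells are not replicates, and no test between stages was made. A difference below is between means over cells of log2(FPKM + 1), where FPKM is a fragment count scaled by transcript length and by the mapped fragments of the cell. This scale understates the change of low genes.

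Oxidative phosphorylation passes electrons from NADH and succinate along complexes I to IV of the inner mitochondrial membrane to oxygen, and ATP synthase (complex V) uses the resulting proton gradient to make ATP. Most subunits are encoded in the nucleus and a small core set in mitochondrial DNA. In mammals the embryo inherits its mitochondria from the oocyte, and oxygen use is known to increase as the blastocyst forms. Several complex IV subunits have alternative forms used in particular tissues.

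Of the 90 members, 80 are subunits. They comprise 6 core and 28 accessory subunits of complex I, 4 of complex II, 9 of complex III, 11 ubiquitous and 6 alternative subunits of complex IV, and 5 F1 and 11 Fo or stalk components of ATP synthase. The F1 head makes ATP, and the Fo part and the stalk carry protons and hold the head. The others are 8 complex I assembly factors, the supercomplex factor COX7A2L and the read-through transcript NDUFC2-KCTD14. A mean FPKM of at least 1 over all cells was reached by 84 members and by 9781 genes of the table. COX6A2, COX6B2, NDUFA3, NDUFA4L2, NDUFC2 and NDUFC2-KCTD14 stayed below it, and COX6A2 and NDUFC2-KCTD14 were listed at 0 in every cell. NDUFV2, NDUFA5, NDUFB1, UQCRFS1, CYCS and the genes of mitochondrial DNA were not analysed here. NDUFC2 shares its locus with the read-through. NDUFA3, COX7C, COX7A2, NDUFB3, UQCRB, UQCRH and UQCRHL, the 3 ATP5G genes, SDHC and SDHD have close copies elsewhere in the genome, so their levels are uncertain where reads could be split.

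Reads recovered from the FPKM steps ran from 3.15 to 20.1 M per cell, with stage medians of 11.3, 12.8, 11.2 and 11.8 M in order of stage. The median number of genes at an FPKM of at least 1 was 7020, 7094, 6962 and 6714. Of 11 epiblast markers, 9, 8, 8 and 9 were at that level in 50% or more of the cells. Trophectoderm (outer cell) markers were not at 0: the lowest and highest summed FPKM of 12 were 43.5 and 5591 in early, 224 and 7123 in middle, 398 and 21056 in late and 562 and 5172 in hatching cells, with CGA at 0 in every early and middle cell. Of 10 cumulus and granulosa markers, AMH, FOXL2 and INHBA were at 0 in every cell, and the highest summed FPKM was 887, in an early cell. The part of such cells in the results was not tested. The early cell with title number 9 stood apart, with the fewest reads (6.35 M) and genes (5873) of its stage and the lowest level of 45 of the 84 members among early cells.

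Transcripts of these genes took their largest share in early cells. The 90 members made up a median of 6.23% of a cell's summed FPKM in early cells (3.53% to 6.86%) and 4.64% in middle cells (3.21% to 5.88%). The share was 5.09% in late cells (3.46% to 6.74%) and 4.49% in hatching cells (2.61% to 5.40%). The lowest early value belongs to the cell numbered 9, and the next lowest was 5.08%. The stages overlapped, but more than 75% of the early cells lay above the highest hatching cell, since the lower quartile of the early cells was 5.78%.

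**Figure D1:**
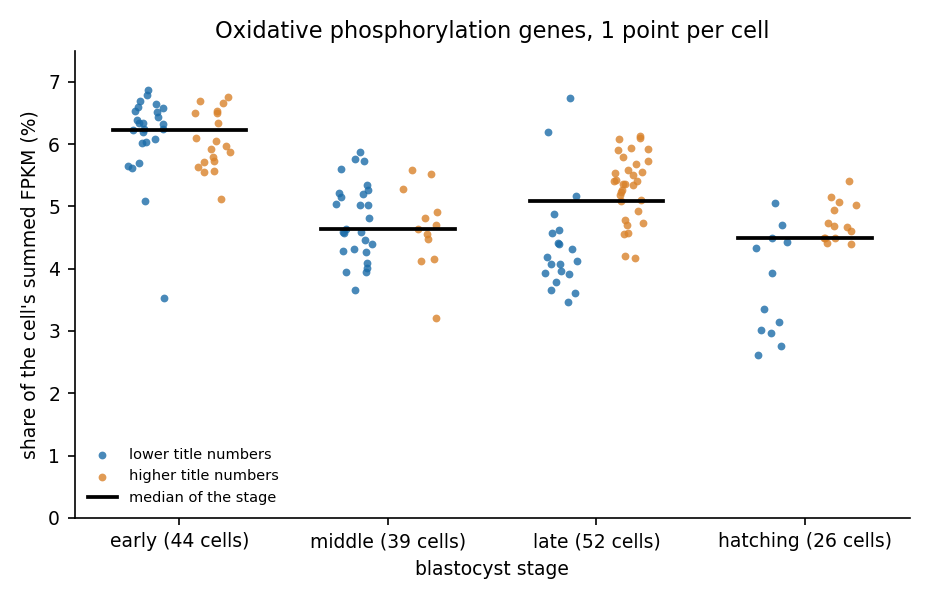
Share of each cell's summed FPKM (vertical axis, percent) taken by the 90 oxidative phosphorylation genes, by blastocyst stage, with 1 point per cell, coloured by the range of its title number; black bars are stage medians (6.23, 4.64, 5.09 and 4.49%). Late and hatching cells with lower title numbers reach further down than those with higher ones.

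Complexes I and IV held most of that difference. Complex I members took 2.25% of summed FPKM in early cells and 1.62%, 1.74% and 1.73% in the later stages. Complex IV members took 1.69%, 1.04%, 1.25% and 0.991%. ATP synthase was at 1.47%, 1.22%, 1.28% and 1.14%, and complex III at 0.656%, 0.639%, 0.604% and 0.558%. Complex II, the succinate dehydrogenase that also works in the citrate cycle, was highest in middle cells, with 0.0528%, 0.0681%, 0.0539% and 0.0449%.

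Gene by gene, most members were lower in middle than in early cells, and most were lower in hatching than in late cells. The median member differed by -0.51 for middle minus early, where the median over all 9781 genes was 0.08. Of 84 members 70 were lower, 9 of them by 1 log2 unit or more and none higher by as much. Across all genes tested, 3.61% were lower by that much and 3.06% higher, which makes 6.67% past 1 unit in either direction. Late minus middle had a median of 0.12 (-0.05 over all genes), with NDUFA1 and COX7C higher by 1 unit and NDUFAF5 lower, against 3.95% and 5.82% of all genes and 9.76% in either direction. Hatching minus late had -0.35 (-0.14 over all genes), with 11 members lower and 1 higher, against 9.87% and 7.26% of all genes and 17.1% in either direction.

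From the early to the hatching stage the median member differed by -0.78, beside -0.12 over all genes. Lower by at least 1 unit were 28 of 84 members, where 16.2% of all genes were, and higher were 2, where 11.3% were; in either direction the background was 27.5%. Without the early cell numbered 9 the counts were 31 and 2. With median-of-ratios scaling the median of all genes was at -0.00, that of the members at -0.59, and 22 members were lower and 3 higher. This contrast shares its early cells with middle minus early and its hatching cells with hatching minus late. In none of these 4 contrasts did a member separate the stages completely, and of all genes only 4 did, between early and hatching cells (0.0409%).

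**Figure D2:**
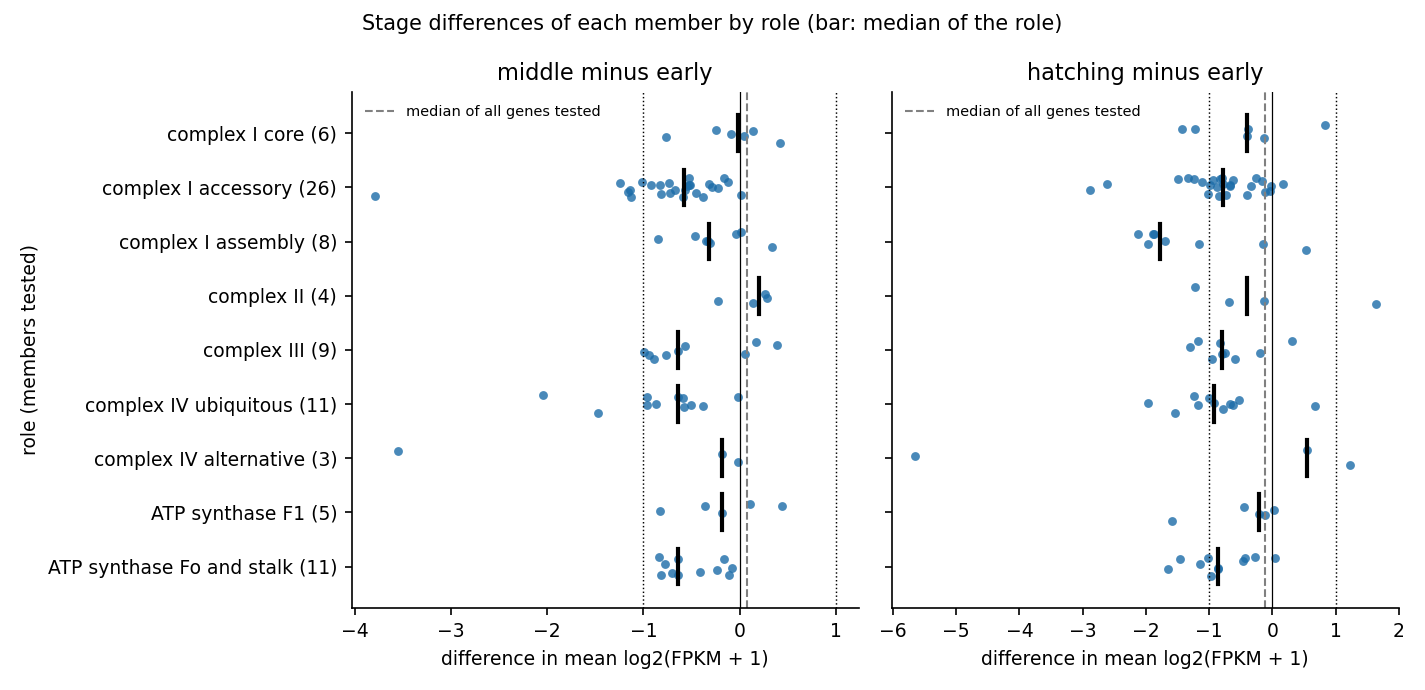
Difference in mean log2(FPKM + 1) of every tested member (points) by role, for middle minus early (left) and hatching minus early (right); thick bars are role medians, dotted lines mark 1 log2 unit and the dashed line is the median of all genes tested. Complex I assembly factors have the lowest role median on the right, at -1.78, and F1 subunits lie closer to 0.

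Roles differed in which step held the difference. Between early and middle cells, accessory subunits of complex I had a median of -0.58, and complex III, the ubiquitous subunits of complex IV and the Fo and stalk components had -0.64 each. Medians were closer to 0 in that step for the 6 complex I core subunits (-0.02), for complex II (0.20) and for the F1 subunits (-0.19); with every cell set to the same summed FPKM the first and the last were 0.19 and 0.02. The assembly factors, which build complex I but are not part of it, had -0.32 there and -0.92 between late and hatching cells. The roles also differed in median transcript length. It was 662 bases for accessory, 572 for ubiquitous complex IV and 797 for Fo and stalk genes, but 1338 for complex III. For core subunits it was 1231.5, for complex II 1821.5 and for F1 subunits 1108. The part of length in the differences between roles was not tested.

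Transcript length went with the middle minus early difference and, in the opposite direction, with late minus middle. The FPKM steps also give the length behind each value, and 37 of the 84 members were at most 750 bases long. All 37 were lower in middle than in early cells (35 with every cell set to the same summed FPKM), with a median of -0.67. Of all 418 tested genes of that length, 80.4% were lower, with a median of -0.49. For the 27 members above 750 and up to 1500 bases the median was -0.36, beside -0.15 over 1591 genes. The 20 members over 1500 bases had a median of 0.00, beside 0.14 over 7772 genes, and 10 of them were lower. For late minus middle the order was opposite. Members of at most 750 bases had a median of 0.29, beside 0.22 over all genes of that length. Members over 1500 bases had -0.14, beside -0.07.

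Short genes as a whole made up less of the middle cells. Genes of at most 750 bases other than the members held a median of 25.5% of summed FPKM in early, 19% in middle, 23.2% in late and 21.6% in hatching cells. When each gene's difference was taken relative to the median of its length class, the middle minus early median of the members was -0.16. Their late minus middle median was 0.01 on that scale, with 40 of 84 members below 0. For middle minus early, 5 of 84 members (5.95%) were lower by 1 unit on that scale and none higher. Of all genes, 3.35% were lower by as much and 2.36% higher. In either direction 5.72% of all genes were past 1 unit, near the 5.95% of the members. The lower count rests on only 5 genes, so neither count is read as a result about the members. The hatching minus early median was -0.34 on that scale, with 16 members lower by 1 unit and 4 higher, where 13.3% of all genes were lower and 13.3% higher. In either direction these are 23.8% of the members and 26.6% of all genes. In that contrast members over 1500 bases had a median of -0.89, beside -0.07 over all genes of that length, and members of at most 750 bases had -0.77, beside -0.61. The part of RNA quality or library preparation in the length pattern was not tested.

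**Figure D3:**
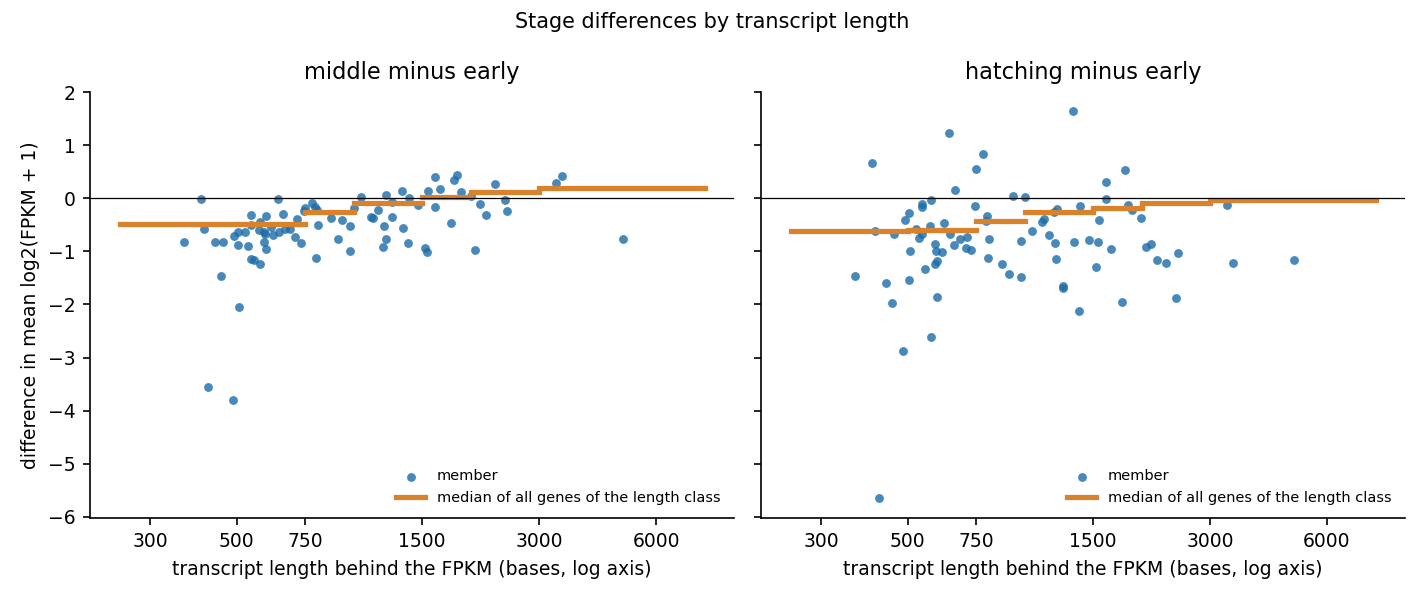
Difference in mean log2(FPKM + 1) of each tested member (points) against its transcript length in bases (log axis), for middle minus early (left) and hatching minus early (right); orange steps are medians of all tested genes per length class. On the left the short members and the steps lie lowest, and on the right most long members lie below the steps.

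The core subunits of complex I carry the flavin and the iron-sulfur clusters. NDUFS3 and NDUFS1 were the core subunits lower by 1 unit between early and hatching cells. NDUFS3 had a median FPKM of 356 (172 to 715) in early cells and 169 (1.23 to 391) in hatching cells, a difference of -1.42. NDUFS1 had 39.9 (0.0835 to 89.4) and 25.2 (0 to 71.2), a difference of -1.22. For both genes the 2 stages overlapped. NDUFS7 differed in the other direction, by 0.83.

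Of the 26 accessory subunits of complex I tested, 25 were lower in hatching than in early cells (21 with median-of-ratios scaling), 7 of them by 1 unit or more. Of all 9781 genes tested, 5493 were lower, and 16.2% were lower by 1 unit or more. NDUFB2, with the highest mean FPKM of these subunits, had a median of 1567 (765 to 2329) in early, 724 (160.0 to 1443) in middle, 741 (305 to 1738) in late and 645 (163 to 1049) in hatching cells. Only the upper hatching cells reached the range of the early ones. NDUFB11 had 574 (154 to 969.8) in early, 237 (62.6 to 598) in middle, 272 (86.0 to 688) in late and 124 (1.03 to 486) in hatching cells, a difference of -2.61 between the first and the last. NDUFV3, NDUFA7, NDUFA8 and NDUFB3 were at -1.49, -1.23, -1.12 and -1.01. NDUFA11, NDUFS6 and NDUFB4 were at -1.13, -1.14 and -1.01 for middle minus early but at -0.34, -0.67 and -0.83 for hatching minus early.

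NDUFA1, a small accessory subunit needed for complex I assembly, had the largest differences among the complex I subunits. Its median FPKM was 783 (117 to 1837) in early, 133 (0.978 to 346) in middle, 346 (109 to 1303) in late and 485 (3.53 to 1033) in hatching cells. Middle and hatching cells fell into low and high cells rather than around 1 level. In middle cells 16 lay at or under 15.3 FPKM and 23 at or above 38.5. In hatching cells 12 lay at or under 12.3 and 14 at or above 407. The stage differences (-3.79, 3.02, -2.11 and -2.88 in the order of the contrasts above) are averages over these low and high cells. Medians over cells gave 0.47 for hatching minus late.

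The low NDUFA1 cells followed the numbers in the cell titles. The titles of each stage were divided into a lower and a higher range: 1 to 28 and 29 to 48 in early, 1 to 29 and 32 to 55 in middle, 1 to 22 and 23 to 79 in late, and 1 to 18 and 22 to 47 in hatching cells. The borders came from an earlier clustering of these same cells, so the ranges are not independent of the values, and the labels do not say what a number stands for. The 12 low hatching cells were the 12 of the lower range, with a median FPKM of 4.47, and the 14 cells of the higher range had 664. Of the 9781 genes 15 separated these ranges completely (0.153%), NDUFA1 being the only member. All 16 low middle cells were of the lower range, whose 11 other cells were high. In early cells the order was opposite, with 1162 (479 to 1837) in the lower range and 243 (117 to 432) in the higher, again without overlap, as for 4 genes of 9781 (0.0409%).

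**Figure D4:**
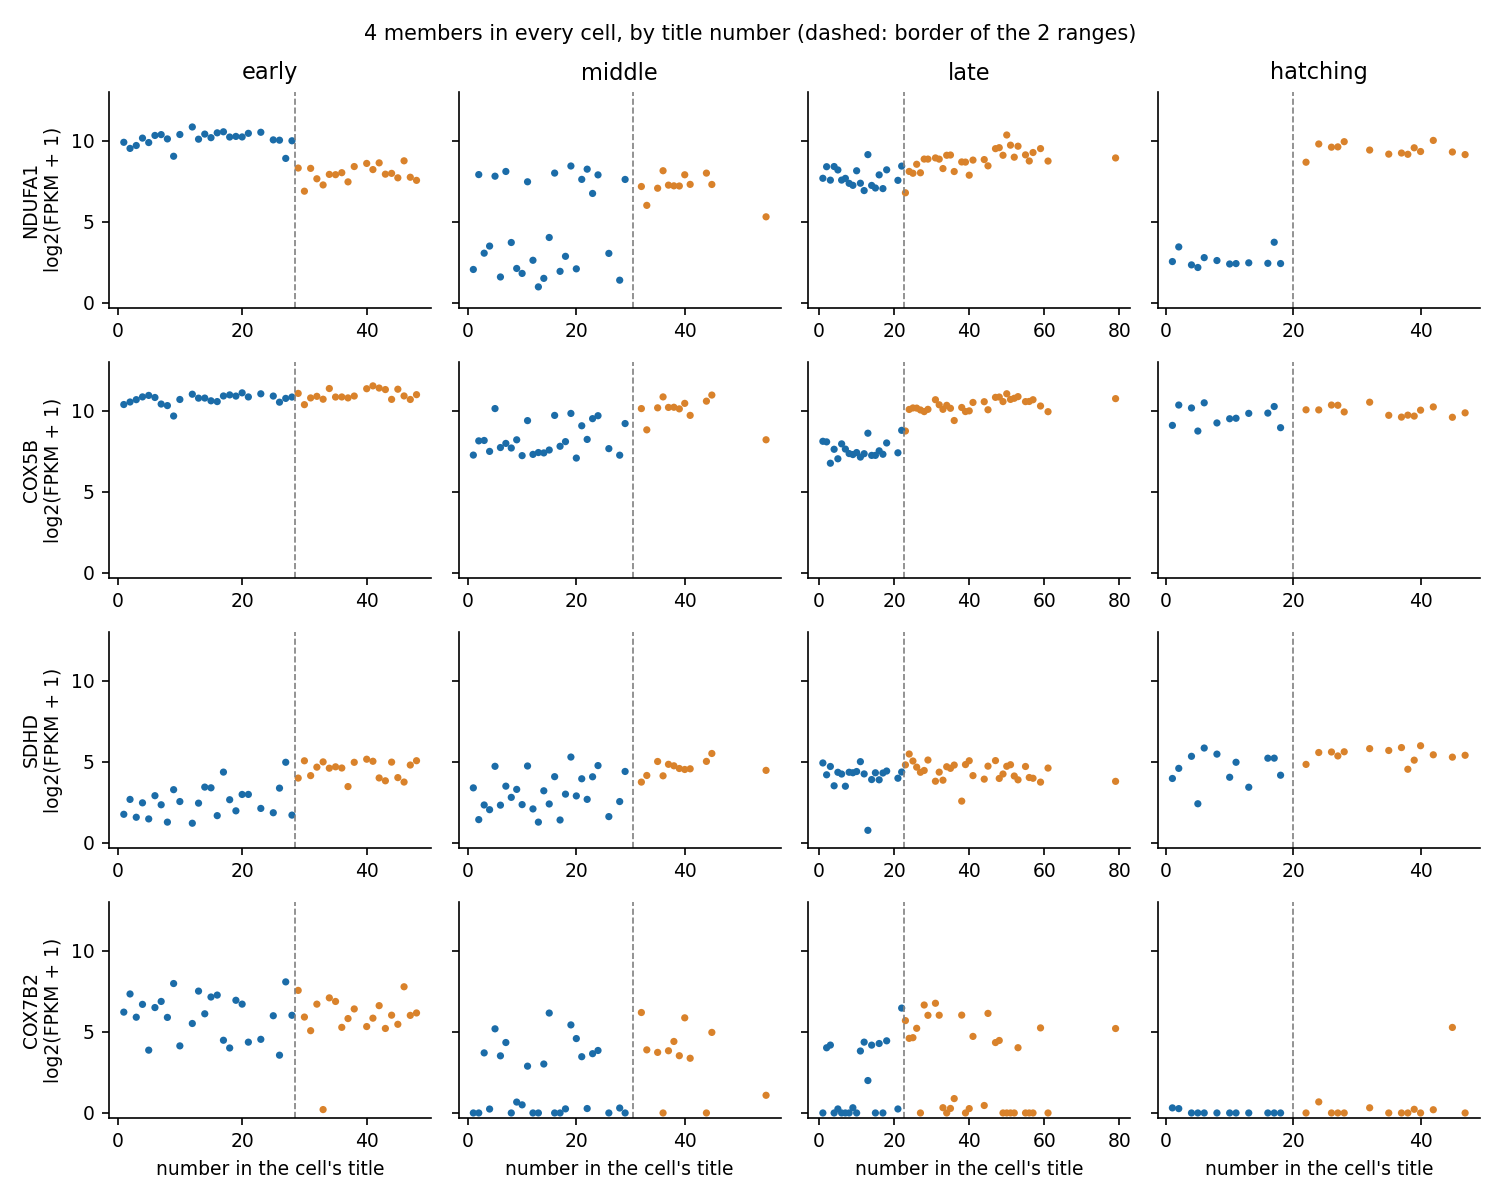
Level of NDUFA1, COX5B, SDHD and COX7B2 as log2(FPKM + 1) in every cell (vertical axis) against the number in its title, with 1 column per stage; blue and orange are the lower and higher number ranges and dashed lines their borders. NDUFA1 is low in hatching cells 1 to 18 and in part of the middle cells 1 to 29, COX5B is low in late cells 1 to 22, and COX7B2 is near 0 in all hatching cells but 1.

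Of the 8 assembly factors of complex I, 6 were lower by 1 unit between early and hatching cells, where 16.2% of all genes were. NDUFAF3 had a median FPKM of 202 (16.6 to 315) in early, 94.3 (45.5 to 252) in middle, 89.7 (18.4 to 188) in late and 67.2 (0.133 to 131) in hatching cells, a difference of -2.12 between the first and the last. NDUFAF6, NDUFAF5, NDUFAF2, NDUFAF4 and NDUFAF7 were at -1.96, -1.88, -1.87, -1.70 and -1.17. The median FPKM of NDUFAF7 was close in both stages, at 13.9 in early and 12.6 in hatching cells. It reached an FPKM of 1 in 41 of 44 early but 17 of 26 hatching cells. An FPKM of 1 or more was found for NDUFAF2 in 41 of 44 early cells, or 93.2% (81.3% to 98.6%), and in 15 of 26 hatching cells, or 57.7% (36.9% to 76.6%). These and later intervals are exact (Clopper-Pearson, 95%) and cover counting error only. NDUFAF1 (-0.15) and ATP5SL (0.53), whose product is also counted among complex I assembly factors despite its symbol, were not lower by 1 unit.

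Assembly factors outside the symbol rule were lower too. All 7 complex I assembly factors with other symbols were lower in hatching than in early cells, 6 by 1 unit or more, with a median of -1.26. NUBPL, which delivers iron-sulfur clusters, was at -1.64, ECSIT at -1.33 and FOXRED1 at -1.27. For 21 assembly factors of complex IV the median was -0.56 with 8 lower by 1 unit, and COA4 (-2.47), COX14 (-2.22) and CMC1 (-1.97) differed most. For 8 assembly factors of complexes II, III and V it was -0.51 with 2 lower, SDHAF1 (-2.15) and TMEM70 (-1.44), while UQCC was at -0.91. In these 3 lists no gene was higher by 1 unit. Of all genes tested, 16.2% were lower by 1 unit and 11.3% higher.

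Complex II subunits differed in opposite directions. SDHA, the flavoprotein that oxidises succinate, had a median FPKM of 178 (81.6 to 283) in early, 199.7 (76.9 to 367) in middle, 160.2 (59.5 to 361) in late and 74.8 (25.5 to 134) in hatching cells. Its difference between early and hatching cells was -1.21, and the upper hatching cells overlapped the lower early ones. SDHD, a membrane anchor, was at 9.71 (1.32 to 34.8), 12.5 (1.43 to 44.7), 19.5 (0.714 to 43.7) and 38.8 (4.33 to 62.7), a difference of 1.64. It too went with the title numbers, with a median of 4.55 in the lower and 24.5 in the higher range of early cells, and 6.45 and 22.9 in middle cells. The 19 early cells at or under 6.95 FPKM of SDHD were all of the lower range. With higher numbers alone its early to hatching difference was in the same direction but below 1 unit. SDHB and SDHC, the iron-sulfur subunit and the other anchor, were at -0.69 and -0.12.

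In complex III, CYC1, the cytochrome c1 that passes electrons to cytochrome c, had the highest mean FPKM. Its median was 1137 (632 to 1495) in early, 1143 (713 to 2012) in middle, 1052 (556 to 1887) in late and 972 (466 to 1652) in hatching cells. The stages overlapped over most of these ranges, and the difference was -0.20. The core subunits UQCRC1 and UQCRC2 were at 0.31 and -0.95 for hatching minus early. UQCRQ and UQCRB, small subunits of the complex, were at -1.30 and -1.17.

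All 11 ubiquitous subunits of complex IV were lower in middle than in early cells and all 11 higher in late than in middle cells, though only COX5B and COX7B passed 1 unit in the first step and COX7C in the second. With every cell set to the same summed FPKM these counts were 10 and 8. Of all 9781 genes tested, with values as deposited, 4260 were lower in the first step and 4470 higher in the second. The 11 subunits had a median length of 572 bases. Of the 418 genes of at most 750 bases, 80.4% were lower in the first step and only 30.1% in the second. COX7C in the first step (-0.02) and COX5A in the second (0.007) differed very little. COX4I1, with the highest mean FPKM of all members, had a median of 1793 (1154 to 2447) in early, 1243 (757 to 1907) in middle, 1348 (710.2 to 2455) in late and 1071 (531 to 1860.3) in hatching cells. COX7B had 1097 (635 to 1748), 401 (108 to 966), 496 (267 to 1384) and 339 (72.3 to 785), a difference of -1.96 between early and hatching cells. Only the upper hatching cells of COX7B reached the range of the early ones. COX8A, COX5A and COX6C were at -1.54, -1.23 and -1.18.

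COX5B had a median of 1838 (815 to 2957) in early, 299 (134 to 1998) in middle, 1036 (107 to 2111) in late and 928 (428 to 1472) in hatching cells. Its middle minus early difference of -2.04 was larger in the lower title numbers, whose middle cells had a median of 252, against 1167 in the higher ones. Late cells had 169 and 1269 in the same order. Across cells, the correlation of COX5B with NDUFA1 was 0.82 in 39 middle and 0.80 in 52 late cells, 0.39 in 26 hatching cells and -0.19 in 44 early cells. Cells of a stage share number ranges and possibly embryos, so these are descriptions.

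Most alternative subunits of complex IV were rare, with 1 exception. COX7B2, the testis form of COX7B, had a median FPKM of 64.2 (0.156 to 270.1) in early, 7.10 (0 to 72.2) in middle, 0.613 (0 to 108) in late and 0 (0 to 37.7) in hatching cells. An FPKM of 1 was reached in 43 of 44 early, 22 of 39 middle, 25 of 52 late and 1 of 26 hatching cells, which are 97.7% (88.0% to 99.9%), 56.4% (39.6% to 72.2%), 48.1% (34% to 62.4%) and 3.85% (0.0973% to 19.6%). Middle cells fell into 18 at or under 1.13 FPKM and 21 at or above 6.39, and late cells into 28 at or under 3 and 24 at or above 13.1, in both number ranges. Its difference of -5.65 between early and hatching cells was the largest of any member.

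The ubiquitous forms were far above the other alternative ones in FPKM. COX4I2, the lung form, had a median of 0 in early and 0.323 in hatching cells, with a highest hatching cell at 103. It differed by 1.22 between early and hatching cells and by 1.12 between late and hatching cells, but by -0.86 in the latter with lower title numbers alone. COX7A1, the heart and muscle form, was at a median of 0, 0, 0.102 and 0.0417, while COX7A2 was at 93.3, 57.1, 62.5 and 56.8. COX6B2, the testis form, and NDUFA4L2, induced by low oxygen, reached an FPKM of 1 in 1 cell each. COX7C was low although it is a ubiquitous subunit, with a median of 0 in early and 0.266 in late cells, where it reached an FPKM of 1 in 18 of 52.

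ATP synthase differed by part. The subunits ATP5A1 and ATP5B, which form the catalytic ring of the F1 head, were at -0.21 and -0.12 for hatching minus early. ATP5A1 had a median FPKM of 934 (656 to 1237) in early cells and 829 (224 to 1379.7) in hatching cells, with overlap. ATP5E, the smallest F1 subunit, was at -1.59, with 581 (222 to 996) in early, 341 (46.6 to 783) in middle, 423 (204 to 1098) in late and 203 (76.6 to 359) in hatching cells. Of the 11 Fo and stalk components 10 were lower, 4 of them by 1 unit, where 16.2% of all genes were. These were ATP5S (-1.65), ATP5I (-1.47), ATP5L (-1.14) and ATP5G3 (-1.02).

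The 3 genes for subunit c, the rotating ring of Fo, did not share 1 pattern. ATP5G1 was at 1092 (198 to 1717) in early cells and at 703 (103 to 1484) in hatching cells. ATP5G2 was at 537 (165 to 1005) and 639 (213 to 977). ATP5G3 was at 196 (19.5 to 287) and 105 (11.2 to 161). Their differences were -0.86, 0.04 and -1.02, and each overlapped between the stages. All 3 encode the same mature protein.

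The share of the members differed between the number ranges in late cells and, together with lineage, in hatching cells. Late cells of lower title numbers had a median share of 4.16% and those of higher numbers 5.38%, and hatching cells had 3.64% and 4.68%. The lower hatching range holds all 7 cells classed below as primitive endoderm-like, at 3.01%. The other 5 cells of that range were at 4.49%, close to the 4.68% of the higher range. In late cells the ranges differed within both lineages, with 4.16% and 5.41% in epiblast-like and 4.24% and 5.26% in primitive endoderm-like cells. Early cells had 6.32% and 5.96%, and middle cells 4.64% and 4.67%. For higher minus lower numbers in hatching cells, 21 members were higher by 1 unit and none lower, where 24.9% and 8.77% of all genes were, so the count lies near the background. In early cells 3 were higher and 1 lower (5.69% and 5.33% of all genes), in middle cells 4 and 1 (3.96% and 8.37%) and in late cells 2 and 2 (4.27% and 3.33%). Hatching cells of the lower range also had fewer reads (median 9.38 M, against 14.3 M) and genes (6032, against 7020).

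Within 1 range the early to hatching difference kept its direction in the median member. With lower numbers alone in both stages it was -1.08 (-0.29 over all genes), with 50 members lower by 1 unit and 1 higher, where 26% and 12.4% of all genes were. With higher numbers alone it was -0.46 (0.00 over all genes), with 13 lower and 2 higher, where 15.3% and 16.1% were, so there the count of lower members lies near the background. NDUFA1 was at -7.45 with lower and at 1.47 with higher numbers, so its sign depended on the range.

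Late and hatching cells also divided into 2 lineages. Clusters were made from genes outside all lists used here and named by a marker list: EPI-like for epiblast, the source of the embryo proper, and PE-like for primitive endoderm, which lines the yolk sac. Late cells held 23 EPI-like and 29 PE-like cells, and hatching cells 19 and 7. All 13 PE markers were raised in the hatching PE-like cells, and 9 of 11 EPI markers in the EPI-like ones. Early and middle cells were not classed.

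In late cells the lineages differed little. The median member was at -0.10 in PE-like minus EPI-like cells, beside -0.02 over all genes, and 3 members were lower by 1 unit (9.03% of all genes were) and none higher (8.58% were). NDUFAF1, an assembly factor, had 19.7 (0 to 107) FPKM in PE-like and 66.6 (17.9 to 119) in EPI-like cells, a difference of -1.89. COX4I2 was at -1.53 and COX7C at -1.06. Within the lower title numbers 5 members were lower and none higher (12.1% and 11.7% of all genes), and within the higher numbers 2 and none (10.4% and 10.3%).

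In hatching cells most members were lower in PE-like cells. The median member differed by -0.81, beside -0.45 over all genes. Of 84 members 33 were lower by 1 unit and 1 higher, where 33.7% and 14.2% of all genes were, so the count of lower members lies near the background. The member share was 3.01% (2.61% to 4.34%) in PE-like and 4.67% (3.93% to 5.40%) in EPI-like cells. PE-like cells also had fewer genes at an FPKM of 1 (median 5680, against 6940) and fewer recovered reads (9.74 M, against 13.2 M). With median-of-ratios scaling, over 3256 genes detected in every cell, the member median was -0.26 and that of all genes -0.15. The part of depth and gene number in the difference was not tested.

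All 7 hatching PE-like cells had lower title numbers, as had 5 of the EPI-like cells. Against those 5 alone, the median member was at -0.67, beside -0.30 over all genes, with 26 members lower and 3 higher (31.5% and 18.5% of all genes). Those 5 cells had a member share of 4.49% (3.93% to 5.06%), a median of 6539 genes and 9.02 M reads. The shares of the PE-like cells and of these 5 cells overlapped.

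The complex I assembly factors were low in hatching PE-like cells. All 8 were lower than in EPI-like cells under each of the 3 scalings, 7 of them by 1 unit with the values as deposited, and their median was -1.42. Of all 9781 genes tested, 6372 were lower with the values as deposited, 33.7% by 1 unit, and the median was -0.45. The part of the fewer reads and genes of PE-like cells was not tested for these factors either. NDUFAF4 had a median FPKM of 0.293 (0.161 to 27.7) in PE-like and 29.1 (8.33 to 110.4) in EPI-like cells. NDUFAF2 had 0 (0 to 6.02) and 12.2 (0 to 64.6). NDUFV3, an accessory subunit, was at 3.11 (0.115 to 35.2) and 44.2 (5.63 to 117). The 2 lineages overlapped for each of these genes.

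ATP5H, NDUFB10 and UQCRQ, parts of ATP synthase, complex I and complex III, were the members with no overlap between the hatching lineages, where 3.41% of all genes had none. NDUFB10 had 167 (8.64 to 355) in PE-like and 666 (455 to 1498) in EPI-like cells. NDUFB11 differed in the other direction, with 308 (81.3 to 486) in PE-like and 83.0 (1.03 to 237) in EPI-like cells, a difference of 2.13 and of 2.48 within the lower title numbers. NDUFA1 differed by -5.29 over all hatching cells but by -0.52 within the lower numbers, where all cells were low.

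**Figure D5:**
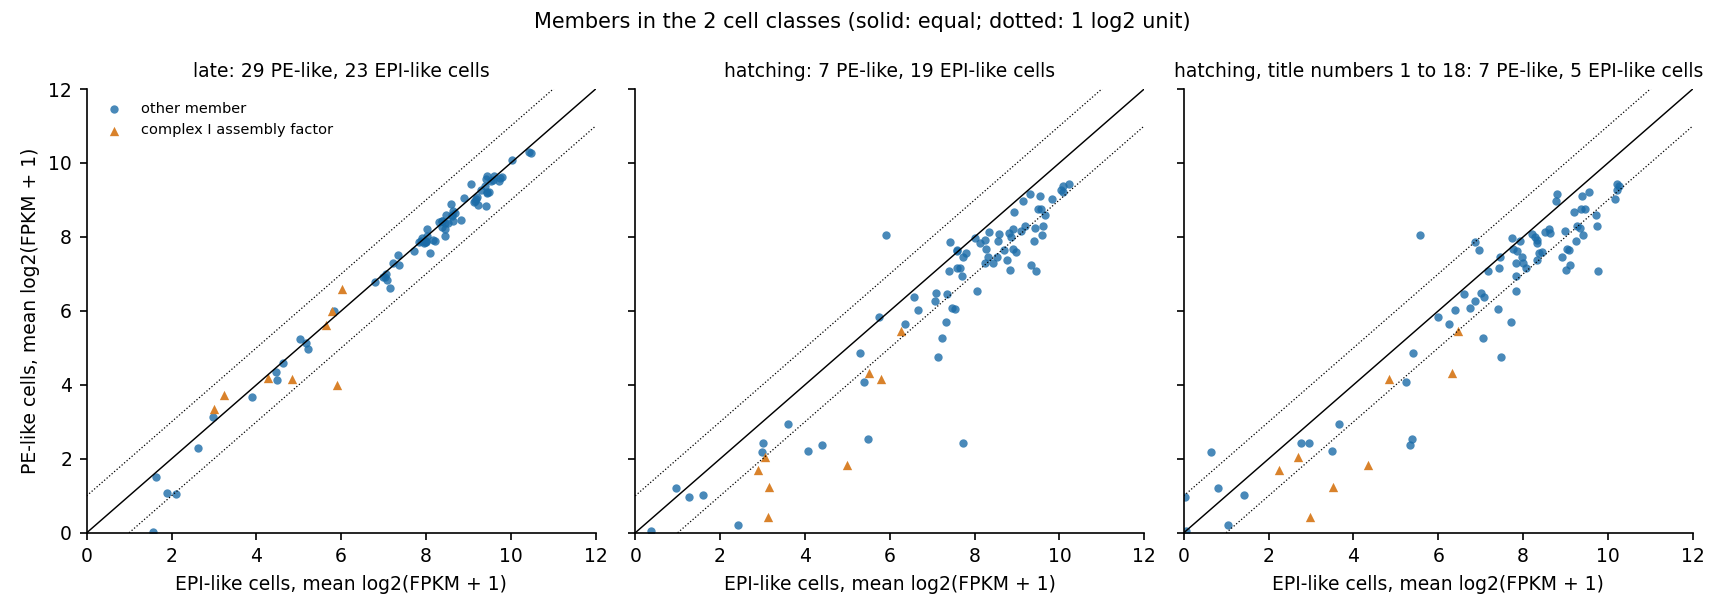
Mean log2(FPKM + 1) of each tested member in PE-like cells (vertical axis) against EPI-like cells (horizontal axis), for late cells, hatching cells and the hatching cells with title numbers 1 to 18; triangles are complex I assembly factors, the solid line is equality and dotted lines are 1 log2 unit. Late members lie along the line, while 78 of 84 members lie below it in hatching cells, where 6372 of all 9781 genes tested were lower.

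From the late to the hatching stage, EPI-like cells had a median member difference of -0.19 (-0.02 over all genes), with 6 members lower by 1 unit and none higher, against 7.51% and 8.34% of all genes. For PE-like cells it was -0.79 (-0.43 over all genes), with 35 lower and none higher, against 30.1% and 11.8%. Whether the change differs between the lineages was not tested.

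Pairs of members had higher correlations than pairs of all genes. The median correlation between pairs of members across cells was 0.17 in early, 0.13 in middle, 0.17 in late and 0.26 in hatching cells, beside 0.01, 0.01, 0.01 and 0.03 over all genes. In hatching cells a cell's mean member level went with the number of genes detected (r = 0.82, 26 cells) and with log10 reads (r = 0.72). Over the 19 EPI-like hatching cells alone these were 0.62 and 0.70. In late cells they were 0.03 and 0.03. Members and all genes were not matched for level, and the genes of a cell share its library and depth, so these are descriptions.

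Other mitochondrial lists were lower in hatching than in early cells too. Over all genes tested the median was -0.12, with 16.2% lower by 1 unit and 11.3% higher. The 63 mitochondrial ribosome proteins tested, which translate the subunits made inside the organelle, had a median of -0.90 with 23 lower by 1 unit and none higher, and MRPS25 (-2.16), MRPS11 (-2.13) and MRPL39 (-1.86) differed most. The 16 citrate cycle and pyruvate dehydrogenase genes had -0.68, with 5 lower and none higher. PDHA1, the pyruvate dehydrogenase subunit that kinases control, had a median FPKM of 335 (194 to 495) in early, 177 (112 to 487) in middle, 169 (63.5 to 434) in late and 80.2 (14.2 to 162) in hatching cells. Early and hatching cells of PDHA1 did not overlap. SUCLA2 was at -1.35 and DLD at -1.25.

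Of 14 genes for mitochondrial transcription and biogenesis, 4 were lower by 1 unit between early and hatching cells and none higher. Of all genes tested, 16.2% were lower by as much and 11.3% higher. The median of the 14 genes was -0.75, beside -0.12 over all genes. ESRRB, a nuclear receptor also known from naive pluripotency, was at 56.2 (0.239 to 169.6) in early, 55.2 (2.55 to 114) in middle, 1.56 (0 to 151) in late and 0.0195 (0 to 25.4) in hatching cells. GABPA, part of nuclear respiratory factor 2, was at -1.80, the transcription factor TFB2M at -1.78 and TFAM, which packages mitochondrial DNA, at -0.93. NRF1 was at -0.17. The coactivator PPARGC1A was below the filter, with at most 0.0272 FPKM in any cell.

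Electron carriers, ATP export and uncoupling genes did not share a direction, with a median of -0.18 over 14 genes (0.02 with median-of-ratios scaling). Lower by 1 unit were 3 and higher was 1, where 16.2% and 11.3% of all genes were. UCP2, an inner membrane carrier, had a median FPKM of 0.891 (0 to 62.7) in early, 46.9 (0.0388 to 172) in middle, 1.09 (0 to 68.7) in late and 66.1 (0.0988 to 158) in hatching cells. Its medians were high in middle and hatching cells and low in the other stages, and all stages overlapped. AIFM1, which supports the making of complex I, was at -2.92 and ETFDH, which feeds electrons from fat oxidation, at -1.36. ATPIF1, the inhibitor of ATP synthase, was at 0.67.

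Genes that set the fate of pyruvate were divided, with a median of 0.07 over 12 genes. Lower by 1 unit were 3 and higher were 2, where 16.2% and 11.3% of all genes were. LDHA, which makes lactate, was at 407 (90.3 to 1205) FPKM in early, 733 (239 to 1412) in middle, 369.7 (23.4 to 1001) in late and 94.2 (9.25 to 349) in hatching cells, a difference of -2.43 between the first and the last. LDHB, the other lactate dehydrogenase subunit, was at -0.65. MPC2, part of the mitochondrial pyruvate carrier, was at 2.27 and the pyruvate kinase PKM at 1.63. PDK1, a kinase that inhibits pyruvate dehydrogenase, was at 0.72.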

How the data were processed

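Single inner cells were compared by stage from 1 table of FPKM, which the authors deposited. Per the submitters' processing notes FastQC, TopHat2 2.1.0, HTSeq and DESeq2 were used, with no role given; the genome build is not given in the sources used here. Reads were 150-bp pairs from polyA RNA amplified by PCR, per the labels' protocols. Whole reads were recovered from the FPKM steps for all 13857 genes above 0 in at least 2 cells (tolerance 0.01 of a read). They gave depth and length only, since with 1 sample per stage no count test applies. Differences used log2(FPKM + 1) in 9781 genes of mean FPKM at least 1. A difference of 1 log2 unit is a size, not a test. Classes came from 1000 variable genes, 10 principal components and Ward clustering into 2 to 4 clusters; a name needed at least 5 cells and 3 raised markers, and rebuilt names may differ from the study's. Doublets were not called. Members, lists, markers and number ranges were chosen with earlier results of these data known. Named members are those past 1 unit in a stage contrast, the highest and the most different of each role, and paralog pairs; from each other list the 3 most different genes and NRF1, TFAM, PPARGC1A, UCP2, LDHA, LDHB, PDK1 and ATPIF1. A gene that this rule names is not reported here. NDUFS7, NDUFAF1, ATP5SL, ATP5B, ATP5H, NDUFB10, UQCRC1, UQCRC2, PDK3 and SLC25A5 were named after their values were seen. Alternatives were pseudocounts of 0.1 and 10, 2 scalings, medians, filters, subunits only, number ranges, titles without the HS prefix, class rules and, chosen after seeing the data, length classes. Python 3.11.15 with matplotlib 3.10.9, scikit-learn 1.9.0, scipy 1.17.1, pandas 2.3.3 and numpy 2.4.6 was used, and the steps were tested on simulated data.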

Additional observations from a re-analysis of the deposited data

How the results depend on the processing

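No paired analysis was possible because no result comes from a test and the labels pair no cells. The median member kept its sign under each alternative for middle minus early (-0.76 to -0.16), hatching minus late (-0.41 to -0.17), hatching minus early (-1.08 to -0.34) and PE-like minus EPI-like in late (-0.16 to -0.05) and hatching cells (-0.88 to -0.26), and under 10 of 11 for late minus middle (-0.11 to 0.40). Relative to length classes, an alternative chosen after seeing the data, it was -0.16 for middle minus early. For late minus middle it was 0.01 and for hatching minus early -0.34 on that scale. With median-of-ratios scaling the hatching lineages differed by -0.26. Equal summed FPKM moved the median of all genes for middle minus early from 0.08 to 0.20 and that of the members to -0.30, a distance of -0.50 in place of -0.59. Members past 1 unit are given with the share of all genes under the same setting. They were 9 (6.67%) for middle minus early, but 8 at a pseudocount of 10 (1.04%) and 17 in higher numbers (12.4%). At equal summed FPKM they were 5 (8.17%), and relative to length classes 5 (5.72%). All of these members were lower, where 3.61%, 0.828%, 7.65%, 2.17% and 3.35% of all genes were, in the same order. For late minus middle the members past 1 unit were 3 (9.76%), but 1 at a pseudocount of 10 (1.99%), 5 in lower (14.6%) and 11 in higher numbers (18.5%). For hatching minus late they were 12 (17.1%), but 4 at a pseudocount of 10 (3.41%), 6 by medians over cells (20.6%), 23 in lower (33.1%) and 7 in higher numbers (20.7%). For hatching minus early they were 30 (27.5%), but 21 at a pseudocount of 10 (8.69%) and 21 by medians over cells (28.2%). They were 51 in lower (38.4%) and 15 in higher numbers (31.4%). Of the 84 members, 30, 21, 51 and 15 are 35.7%, 25%, 60.7% and 17.9%. Without the 50 most abundant genes in the denominator the shares were 7.93, 5.67, 6.41 and 5.69%. In lower numbers alone they were 4.16% (late) and 3.64% (hatching). Named members reversed in 4 cases: NDUFA1 for hatching minus late by medians (0.47) and in higher numbers (0.61), NDUFA1 for hatching minus early in higher numbers (1.47) and COX4I2 for hatching minus late in lower numbers (-0.86). The causes were not tested. Levels of a few reads, such as COX7C, limit what the depth can show.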

Other observations

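The members and lists hold 7 genes that are known as X-linked in mammals: the subunits NDUFA1, NDUFB11 and COX7B, and PDHA1, PDK3, AIFM1 and SLC25A5. They were picked out after their values were seen, so their count is a description. Of the 7, 6 were lower by 1 log2 unit or more in hatching than in early cells, where 16.2% of all genes were. These were NDUFA1 (-2.88), NDUFB11 (-2.61), COX7B (-1.96), PDHA1 (-2.29), AIFM1 (-2.92) and SLC25A5 (-1.15). For NDUFA1 and SLC25A5 this depended on the title numbers. In the higher range NDUFA1 had a median FPKM of 243 in early and 664 in hatching cells. SLC25A5 had 3369 and 2503 there, against 3618 and 964 in the lower range. NDUFB11, COX7B, PDHA1 and AIFM1 had lower medians in hatching than in early cells in both ranges. Whether X-linked genes outside the lists were lower was not tested. PDK3, a pyruvate dehydrogenase kinase at a median FPKM of 2.61 in early cells, was at 0.04. SLC25A5, which exchanges ADP for ATP across the inner membrane, had a median FPKM of 3438 (2039.8 to 5587) in early, 1760.1 (1197 to 5739) in middle, 1593 (515 to 3226) in late and 1766 (392 to 2986) in hatching cells. Middle cells of lower title numbers had a median of 1569 and those of higher numbers 3651, late cells 2659.5 and 1435, and hatching cells 964 and 2503. NDUFA1 had 10.3 and 149.7 in these ranges of middle cells and 196 and 464 in late cells, so in late cells the order of the ranges was opposite for the 2 genes.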
